A study of Mus musculus with 9 samples.

Results

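The transcripts of 34 genes of glucose use were followed in bone marrow of mice without Spop, an adaptor that brings substrates to a cullin-3 ubiquitin ligase. The genes encode glucose transporters, the enzymes and isozymes of glycolysis, lactate dehydrogenases and lactate transporters, pyruvate dehydrogenase kinases, enzymes of the pentose phosphate pathway, and an enzyme each of glycogen breakdown and synthesis. They were chosen by name, and all 34 were listed among the 37187 genes of the LSK table and the 45076 genes of the neutrophil table. LSK cells are the marrow fraction that holds blood stem cells and multipotent progenitors. Of 9 bulk RNA-seq libraries, 2 came from Spop(D/D) knockout LSK cells (LSK-KO) and 2 from Spop(+/+) wild-type LSK cells (LSK-WT). Another 3 came from knockout Ly6G-positive neutrophils (N-KO) and 2 from wild-type neutrophils (N-WT). The mice were 4 to 12 weeks old. The labels do not say which part of Spop was deleted, in which cells or by which Cre, nor whether libraries of a group came from different animals.

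Glycolysis splits glucose into pyruvate in the cytosol, and lactate dehydrogenase turns pyruvate into lactate, which monocarboxylate transporters carry out of the cell. The pentose phosphate pathway branches off at glucose 6-phosphate and yields NADPH and ribose 5-phosphate, the sugar of nucleotides. Blood stem cells are known to lean on anaerobic glycolysis in the low oxygen of the marrow, and neutrophils to depend on glycolysis and on NADPH for their oxidative burst.

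Each LSK library had between 18827892 and 20264417 counted reads and each neutrophil library between 21012702 and 27434086. As counts-per-million values (CPM), 3 reads, taken as the floor, equal 0.109 to 0.159. Levels below are CPM scaled by the TMM method. Spop itself stood at 312 and 305 CPM in LSK-KO, against 380.1 and 389.9 CPM in LSK-WT, and at 158, 178 and 209.7 CPM in N-KO, against 135 and 194 CPM in N-WT. Reads from exons outside a deletion still count, so this level does not check the genotype labels. One cell type label disagrees with the others: that of the second LSK-KO library names neutrophils, whereas LSK stands in its title and source name, and Ly6g, the antigen that defines the neutrophil sort, had 0 reads in each LSK library. Kit, Ly6a and Cd34 were found in each LSK library, at 157 CPM or more. In neutrophils, the second N-WT library stood apart. Its summed level of 12 neutrophil markers was 37068 CPM, against 214353, 222598 and 644142 CPM in N-KO and 208500.0 CPM in the first N-WT library. Its summed level of 10 B-cell markers was 1893 CPM, against 5.09, 3.31 and 10.6 CPM in N-KO and 77.5 CPM in the first N-WT library. Among the N-KO libraries the third differed most. Besides its neutrophil-marker sum, its 10 red-cell markers summed to 18351 CPM, against 37.3 and 2.25 CPM in the first and second. Its chi-square per gene, a measure of difference beyond sampling noise, was 550 and 666 against these. It was 105 between the first and second N-KO libraries, and 810 between the N-WT libraries.

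In knockout LSK cells most of the glycolytic route was higher than in wild type. All 34 genes passed the expression filter, and 21 were higher and 6 lower at an adjusted p under 0.05 (edgeR quasi-likelihood test). Of all 13008 genes tested, 21.0% were higher and 21.2% lower by the same rule. The 34 genes had a median log2 fold change of 0.54, against -0.03 over all genes tested. Every LSK-KO library lay above every LSK-WT library for 24 of the 34 genes and below for 7, against 34.6% and 38.3% of all genes. The genes took 0.849% and 0.966% of the counted reads in LSK-KO, against 0.645% and 0.653% in LSK-WT. In bulk samples, more RNA per cell and more cells of a type that is rich in the RNA cannot be told apart.

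**Figure D1:**
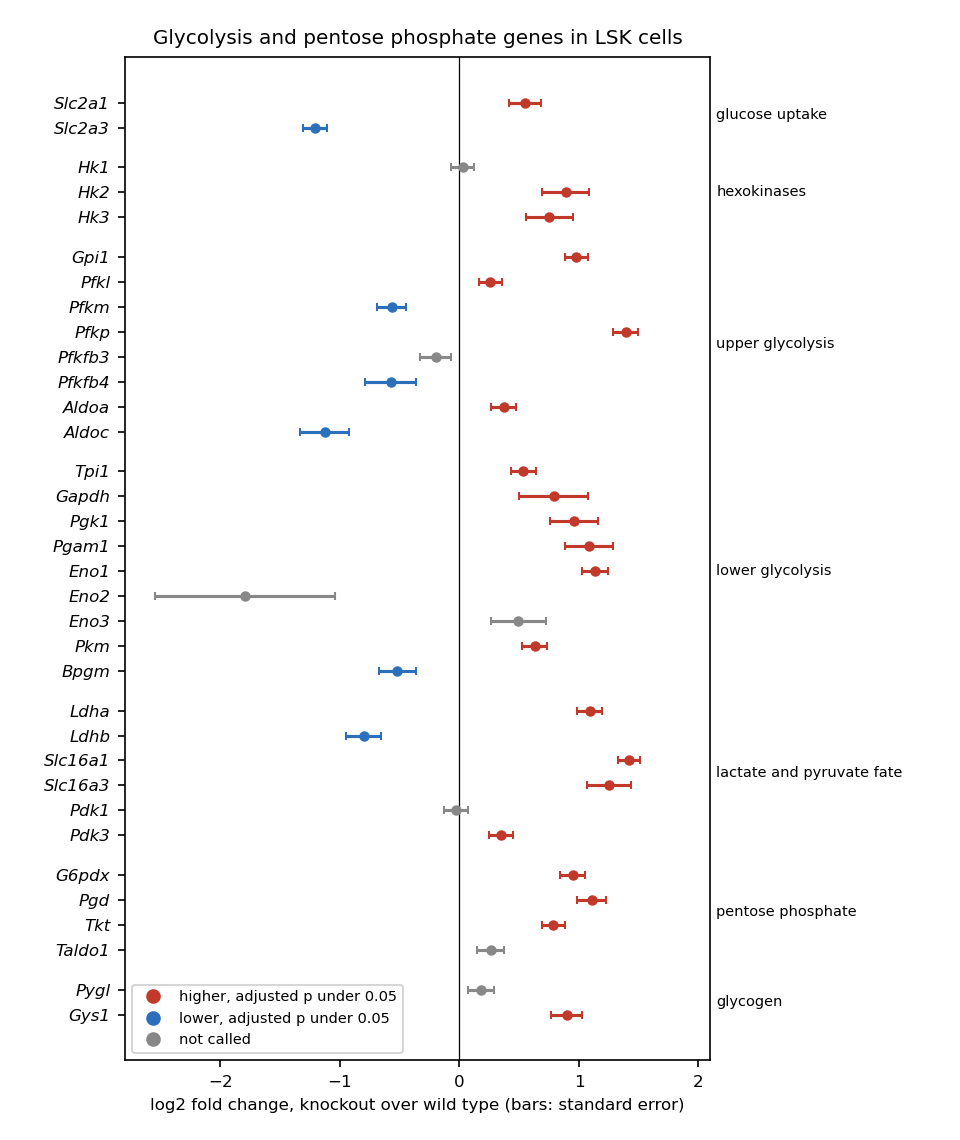
Log2 fold change, knockout over wild type, of the 34 genes in LSK cells (2 libraries each), ordered by role; points are edgeR estimates, bars are standard errors, and colour gives the call at an adjusted p under 0.05. The 21 higher genes lie between 0.26 and 1.42, and the 6 lower genes between -1.21 and -0.52.

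Of these calls, 15 of the 21 higher and 4 of the 6 lower held when any single library was left out. With upper-quartile factors, Pfkl, Aldoa, Gapdh and Pdk3 lost their calls (edgeR adjusted p between 0.0582 and 0.199), and the split over all genes moved to 2207 higher and 3445 lower, against 2738 and 2756 with TMM. When 1 estimate of the spread was shared with the neutrophil libraries, none of the 34 genes and none of all genes tested was called in LSK cells.

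In LSK-KO, other gene lists also held called genes, and their part in the result was not tested. The counts below stand beside 21.0% higher and 21.2% lower among all genes tested. The summed level of 10 proliferation genes was 3201 and 3374 CPM in LSK-KO, against 1696 and 1606 CPM in LSK-WT, with 9 of the 10 higher. Markers of granulocyte-monocyte precursors, 7 genes that include Mpo and Elane, summed to 16109.7 and 18887 CPM in LSK-KO, against 1642 and 2176 CPM in LSK-WT, with 6 of the 7 higher. The 10 LSK markers summed to 2871 and 3124 CPM in LSK-KO, against 5098 and 4837 CPM in LSK-WT. Of the 10, 8 were lower and 1, Ly6a, was higher. None of the 7 precursor markers and none of the 10 LSK markers was at 0 in any LSK library. Of 10 markers of monocytes and macrophages, 5 were higher (Csf1r, Cx3cr1, Ccr2, Ly6c2 and Cd68) and C1qa, C1qb and C1qc lower, none was at 0, and their sum was 588 and 844 CPM in LSK-KO, against 125 and 165 CPM in LSK-WT. Of 10 B-cell markers, all 9 tested were lower, with a sum of 67.7 and 72.7 CPM in LSK-KO, against 247 and 231 CPM in LSK-WT, and Pax5 was at 0 in both LSK-KO libraries. Most precursor markers and 5 of the monocyte and macrophage markers were thus higher in LSK-KO, and the B-cell markers tested were lower. Of 12 mature neutrophil markers, 9 were tested, of which Mmp8 and Cxcr2 were higher and Ngp and Ltf lower. Their sum was 293 and 228 CPM in LSK-KO, against 227 and 237 CPM in LSK-WT, and Csf3r alone, which was not called, made up 184 and 183 CPM in LSK-KO, against 191 and 189 CPM in LSK-WT. Of 6 platelet markers 1 was higher and 4 lower, and of 5 T- and NK-cell markers tested 1 was higher and 2 lower.

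The transcripts of the glucose transporters moved in opposite directions. Slc2a1, which encodes the widely expressed transporter GLUT1 (chromosome 4, 119108711 to 119137983, plus strand of GRCm38), was at 59.9 and 59.6 CPM in LSK-KO, against 44.2 and 37.5 CPM in LSK-WT (log2 fold change 0.55, SE 0.130, edgeR adjusted p = 0.00470). Slc2a3, which encodes the high-affinity transporter GLUT3 (chromosome 6, 122727809 to 122801640, minus strand), was at 85.4 and 92.8 CPM in LSK-KO, against 204 and 208 CPM in LSK-WT (log2 fold change -1.21, SE 0.0991, edgeR adjusted p = 2.14e-06). For both genes the 2 genotypes did not overlap, and the directions were opposite. The fall of Slc2a3 held without any single library, whereas the rise of Slc2a1 lost its call without the second LSK-WT library (edgeR adjusted p = 0.0686). Per kilobase of the principal transcript, the pair summed to 39.96 and 41.7 CPM in LSK-KO, against 65.2 and 64.04 CPM in LSK-WT, so that the summed transporter level was lower in LSK-KO. Slc2a1 made up 44.9% ± 1.55 of that sum in LSK-KO and 19.4% ± 2.004 in LSK-WT (SD, n = 2 each).

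The 3 hexokinases, which phosphorylate glucose and hold it in the cell, gave 2 higher genes and 1 that was not called. Hk2, the inducible form bound to mitochondria (chromosome 6, 82725025 to 82774454, minus strand), was at 33.4 and 24.1 CPM in LSK-KO, against 16.5 and 14.6 CPM in LSK-WT (log2 fold change 0.89, SE 0.195, edgeR adjusted p = 0.00285). Hk3, the form of myeloid cells (chromosome 13, 55005985 to 55021385, minus strand), was at 217 and 310.5 CPM in LSK-KO, against 136 and 176 CPM in LSK-WT (log2 fold change 0.75, SE 0.200, edgeR adjusted p = 0.0254). Both were higher in each LSK-KO library, with a wider spread between the LSK-KO libraries than between the LSK-WT libraries, and the call of Hk3 was lost without the first LSK-WT library (edgeR adjusted p = 0.0815). Hk1, the housekeeping form (chromosome 10, 62268855 to 62379908, minus strand), was at 382 and 367 CPM in LSK-KO, against 347 and 388 CPM in LSK-WT, and its interval (-0.18 to 0.23, log2 scale, 95%) spans 0. Hk3 took 44.1% ± 7.19 of hexokinase transcripts per length in LSK-KO and 32.96% ± 2.32 in LSK-WT (SD, n = 2 each).

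In upper glycolysis, 4 of 8 genes were higher and 3 lower. Gpi1, which turns glucose 6-phosphate into fructose 6-phosphate (chromosome 7, 34201330 to 34230336, minus strand), was at 628 and 685 CPM in LSK-KO, against 332 and 335 CPM in LSK-WT (log2 fold change 0.98, SE 0.0932, edgeR adjusted p = 6.54e-06). Pfkp, the platelet form of phosphofructokinase, the committing step of glycolysis (chromosome 13, 6579768 to 6648777, minus strand), was at 199 and 228 CPM in LSK-KO, against 78.8 and 83.9 CPM in LSK-WT (log2 fold change 1.39, SE 0.106, edgeR adjusted p = 1.28e-06). Every LSK-KO library exceeded every LSK-WT library for both genes, and for Pfkp by over 2-fold. Pfkm, the muscle form (chromosome 15, 98092589 to 98132451, plus strand), moved the other way, at 42.2 and 41.8 CPM in LSK-KO, against 63.3 and 61.1 CPM in LSK-WT (log2 fold change -0.56, SE 0.121, edgeR adjusted p = 0.00245). Pfkl, the liver form and the most abundant of the 3 in LSK cells (chromosome 10, 77986947 to 78010083, minus strand), differed least, at 366 and 408 CPM in LSK-KO, against 317 and 331 CPM in LSK-WT (log2 fold change 0.26, SE 0.0944, edgeR adjusted p = 0.0432). Its call depended on the libraries used (edgeR adjusted p = 0.252 and 0.152 with only the second or only the first LSK-WT library, and 0.138 with only the first LSK-KO library). Pfkp took 30.3% ± 0.627 of phosphofructokinase transcripts per length in LSK-KO and 15.3% ± 0.338 in LSK-WT, and Pfkm 8.61% ± 0.700 in LSK-KO and 16.9% ± 0.793 in LSK-WT (SD, n = 2 each).

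The aldolases, which cleave fructose 1,6-bisphosphate, repeated the picture of opposite isozymes. Aldoc, best known from brain (chromosome 11, 78322968 to 78327781, plus strand), was at 9.43 and 12.4 CPM in LSK-KO, against 26.2 and 21.5 CPM in LSK-WT (log2 fold change -1.13, SE 0.206, edgeR adjusted p = 0.000817). Aldoa, the main form in most tissues (chromosome 7, 126795234 to 126800751, minus strand), was at 653 and 790.4 CPM in LSK-KO, against 576 and 541 CPM in LSK-WT (log2 fold change 0.37, SE 0.107, edgeR adjusted p = 0.0144). The genotypes did not overlap for either gene, but Aldoa was not called when the first or the second LSK-WT library was left out (edgeR adjusted p = 0.0729 and 0.146), nor without the second LSK-KO library (0.0517). Pfkfb3 and Pfkfb4 make and remove fructose 2,6-bisphosphate, an activator of phosphofructokinase. Pfkfb4 was lower, at 9.59 and 10.8 CPM in LSK-KO, against 13.6 and 16.8 CPM in LSK-WT (log2 fold change -0.58, SE 0.212, edgeR adjusted p = 0.0437), a call lost without the first LSK-KO library or either LSK-WT library (edgeR adjusted p between 0.0620 and 0.291), and under DESeq2 (0.0849). Pfkfb3 was not called, at 36.9 and 37.5 CPM in LSK-KO, against 43.9 and 41.4 CPM in LSK-WT (log2 fold change -0.20, 95% interval -0.48 to 0.086).

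**Figure D2:**
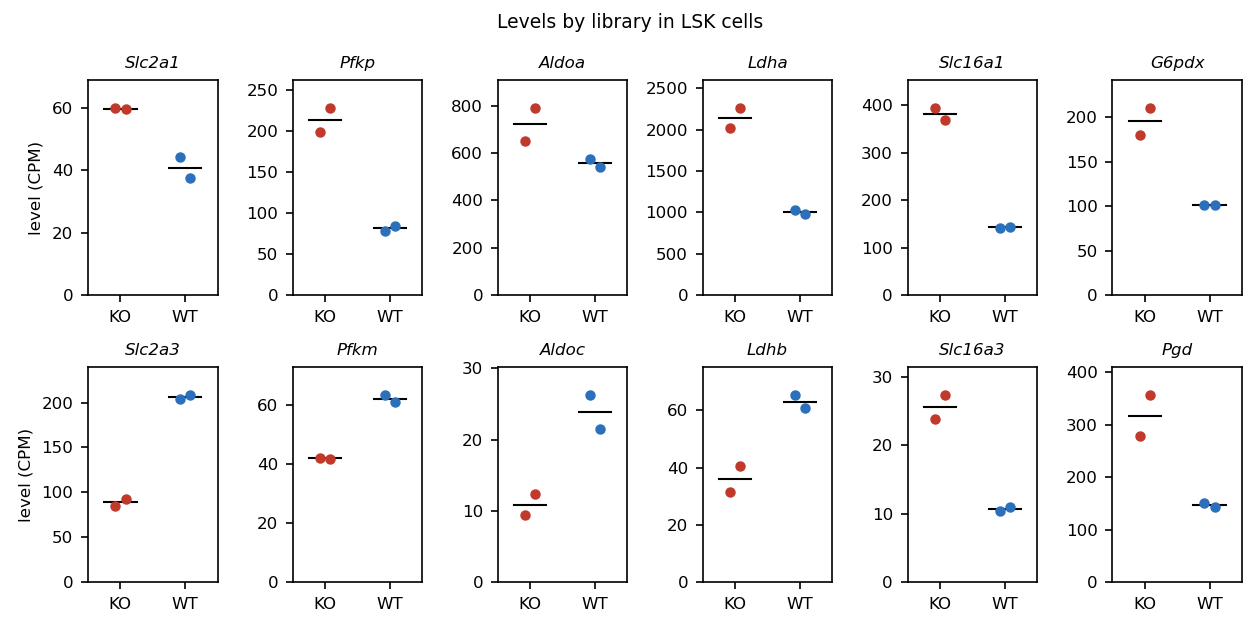
Levels (CPM) of 12 of the genes in each LSK library, knockout (red, left) and wild type (blue, right); points are libraries, horizontal lines are group means (n = 2 each), and each panel starts at 0. The upper and lower panels of the first 4 columns pair isozymes that moved in opposite directions, such as Ldha, higher in LSK-KO, and Ldhb, lower in LSK-KO.

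In lower glycolysis, the part that yields ATP, 6 of 9 genes were higher and 1 lower. Eno1, the enolase of most tissues (chromosome 4, 150236721 to 150248879, plus strand), was at 279 and 337 CPM in LSK-KO, against 137 and 144 CPM in LSK-WT (log2 fold change 1.13, SE 0.107, edgeR adjusted p = 6.49e-06). Pgam1, a phosphoglycerate mutase (chromosome 19, 41911923 to 41918660, plus strand), was at 18.6 and 23.1 CPM in LSK-KO, against 9.43 and 10.2 CPM in LSK-WT (log2 fold change 1.09, SE 0.201, edgeR adjusted p = 0.000911). Pgk1, the phosphoglycerate kinase that makes ATP (chromosome X, 106187100 to 106203699, plus strand), was at 24.6 and 25.7 CPM in LSK-KO, against 15.1 and 10.7 CPM in LSK-WT (log2 fold change 0.96, SE 0.201, edgeR adjusted p = 0.00206). In each of the 3 genes both LSK-KO libraries lay above both LSK-WT libraries, and the calls held without any single library. Tpi1, triose phosphate isomerase, and Pkm, the pyruvate kinase of most tissues outside liver and red cells, were higher by smaller folds, 1.45 and 1.55.

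Several of these levels are uncertain because near-identical processed copies can take reads of the gene. Of all 50-base stretches of the principal transcript, 82.5% also occur in other annotated genes for Gapdh, 72.2% for Eno1, 68.0% for Pgk1, 41.5% for Pgam1 and 34.4% for Pkm. Outside lower glycolysis the largest shares were 27.0% for Ldhb, 25.3% for Gpi1, 17.1% for Ldha, 17.1% for Pfkp and 13.9% for Aldoa. For Pfkp the other gene is Pitrm1, on the opposite strand. Gapdh, the glyceraldehyde 3-phosphate dehydrogenase, was counted at 6.56 and 7.87 CPM in LSK-KO, against 3.75 and 4.59 CPM in LSK-WT (log2 fold change 0.79, SE 0.290, edgeR adjusted p = 0.0440), and it was not called when the second LSK-KO library or either LSK-WT library was left out (edgeR adjusted p between 0.0817 and 0.211), nor under DESeq2 (0.0735). The counting of reads that match several places is not given in the sources used here. Bpgm, which makes the 2,3-bisphosphoglycerate of red cells, was the lower gene of the group, at 23.1 and 21.4 CPM in LSK-KO, against 30.5 and 33.4 CPM in LSK-WT (log2 fold change -0.52, SE 0.156, edgeR adjusted p = 0.0174). It was not called when either LSK-WT library was left out (edgeR adjusted p = 0.0576 and 0.127), and the summed level of 10 red-cell markers was 59.8 and 105 CPM in LSK-KO, against 124 and 184 CPM in LSK-WT, with 7 of the 10 lower. The part of red cells in the Bpgm level was not tested. Eno3, the muscle enolase, was not called, at 11.2 and 11.01 CPM in LSK-KO, against 8.46 and 7.31 CPM in LSK-WT. Eno2, the neuronal enolase, had under 1 CPM in 3 of the 4 libraries, at 0.521 and 0.638 CPM in LSK-KO, against 0.608 and 3.42 CPM in LSK-WT, and was not called.

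Of the 6 genes of lactate and pyruvate fate, 4 were higher and 1 lower, and Slc16a1 had the largest rise of the 34 genes. Ldha, the lactate dehydrogenase subunit that favours lactate (chromosome 7, 46841475 to 46855627, plus strand), was at 2023 and 2263 CPM in LSK-KO, against 1028 and 987 CPM in LSK-WT (log2 fold change 1.09, SE 0.101, edgeR adjusted p = 5.24e-06). Ldhb, the subunit that favours pyruvate (chromosome 6, 142490249 to 142507957, minus strand), was at 31.5 and 40.7 CPM in LSK-KO, against 65.2 and 60.8 CPM in LSK-WT (log2 fold change -0.80, SE 0.144, edgeR adjusted p = 0.000739). Each LSK-KO library was above the LSK-WT libraries for Ldha and below them for Ldhb, and both calls held without any single library. Per kilobase, the 2 subunits summed to 1169.9 and 1312 CPM in LSK-KO, against 632 and 605 CPM in LSK-WT, of which Ldhb was 2.22% ± 0.222 in LSK-KO and 7.80% ± 0.149 in LSK-WT (SD, n = 2 each).

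Slc16a1, which encodes the monocarboxylate transporter MCT1 (chromosome 3, 104638668 to 104658462, plus strand), was at 394 and 369.7 CPM in LSK-KO, against 141 and 144 CPM in LSK-WT (log2 fold change 1.42, SE 0.0927, edgeR adjusted p = 4.03e-07). Slc16a3, which encodes the lactate exporter MCT4 (chromosome 11, 120948480 to 120960868, plus strand), was at 23.8 and 27.3 CPM in LSK-KO, against 10.4 and 11.02 CPM in LSK-WT (log2 fold change 1.25, SE 0.185, edgeR adjusted p = 0.000175). Both transporters rose, by 2.68- and 2.38-fold with no overlap of the genotypes, and the share of Slc16a1 in the pair was 93.6% ± 0.855 in LSK-KO and 92.9% ± 0.180 in LSK-WT (SD, n = 2 each). Pyruvate dehydrogenase kinases inhibit pyruvate dehydrogenase, which turns pyruvate into acetyl-CoA in mitochondria. Pdk1 was not called, at 150.5 and 162 CPM in LSK-KO, against 169 and 150.5 CPM in LSK-WT (log2 fold change -0.029, 95% interval -0.25 to 0.19). Pdk3 was at 169 and 189 CPM in LSK-KO, against 140.5 and 141 CPM in LSK-WT (log2 fold change 0.35, SE 0.0989, edgeR adjusted p = 0.0135), a call that either LSK-WT library alone did not give (edgeR adjusted p = 0.0963 and 0.0918).

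The bases upstream of the start of Ldha, Ldhb and Slc16a1 are shown because the first 2 encode the subunits that moved in opposite directions and the third rose most. They are the 250 bases before the RefSeq transcript start (build GRCm38.p6), 5′ to 3′ on the gene's strand. The windows are chr7:46845554-46845803, plus strand, for Ldha, chr6:142507958-142508207, minus strand, for Ldhb, and chr3:104638414-104638663, plus strand, for Slc16a1. Capitals mark ACGTG or GCGTG, the core of the element bound by hypoxia-inducible factors, on either strand, so that CACGT and CACGC are the same cores read on the other strand.
Ldha: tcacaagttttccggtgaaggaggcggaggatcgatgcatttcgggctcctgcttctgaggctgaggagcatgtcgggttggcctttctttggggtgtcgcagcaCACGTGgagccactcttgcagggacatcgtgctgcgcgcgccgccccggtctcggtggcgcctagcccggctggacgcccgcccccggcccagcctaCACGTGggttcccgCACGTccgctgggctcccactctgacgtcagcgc
Ldhb: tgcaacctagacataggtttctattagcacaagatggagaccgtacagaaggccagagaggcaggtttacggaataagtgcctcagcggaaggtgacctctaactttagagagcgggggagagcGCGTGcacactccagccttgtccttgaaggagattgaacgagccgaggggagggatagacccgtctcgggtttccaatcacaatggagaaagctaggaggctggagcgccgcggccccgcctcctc
Slc16a1: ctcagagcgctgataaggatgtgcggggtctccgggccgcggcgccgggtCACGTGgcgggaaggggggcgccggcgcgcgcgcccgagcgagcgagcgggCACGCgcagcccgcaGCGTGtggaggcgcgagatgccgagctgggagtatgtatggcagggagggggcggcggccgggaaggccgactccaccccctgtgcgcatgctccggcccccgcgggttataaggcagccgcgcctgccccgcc
The Ldha window holds 5 matches of ACGTG over both strands, 4 of them within 2 copies of CACGTG, the E-box, which reads as ACGTG on either strand. The Ldhb window holds 1 match, a GCGTG. In the Slc16a1 window there are 4 matches, 2 of ACGTG within 1 CACGTG and 2 of GCGTG.

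Among the 34 genes, 33 had such a window (all but Slc2a3), and 26 of the windows (78.8%) held ACGTG or GCGTG on either strand. The share was 38.6% over all 32851 windows and 55.2% over the 12672 windows of genes tested in LSK cells. ACGTG was in 13 of the 33 windows (39.4%), against 21.5% of the windows of genes tested. GCGTG was in 19 (57.6%), against 44.0%, and CACGTG in 4 (12.1%), against 8.21%. Windows with either core belonged to 17 of the 21 higher genes and to 4 of the 5 lower genes that had a window. A match is a run of letters, not a binding site.

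Of the 4 pentose phosphate genes, 3 were higher in LSK-KO and none lower. G6pdx, the X-linked glucose 6-phosphate dehydrogenase that makes the first NADPH (chromosome X, 74409483 to 74429194, minus strand), was at 180.4 and 210.3 CPM in LSK-KO, against 102 and 101 CPM in LSK-WT (log2 fold change 0.95, SE 0.105, edgeR adjusted p = 2.09e-05). Pgd, the next dehydrogenase and second source of NADPH (chromosome 4, 149149991 to 149166771, minus strand), was at 278 and 356 CPM in LSK-KO, against 152 and 143 CPM in LSK-WT (log2 fold change 1.11, SE 0.118, edgeR adjusted p = 2.20e-05). Tkt, transketolase of the reversible branch (chromosome 14, 30548359 to 30574720, plus strand), was at 748 and 856 CPM in LSK-KO, against 471 and 459 CPM in LSK-WT (log2 fold change 0.79, SE 0.0985, edgeR adjusted p = 5.10e-05). For all 3 the genotypes did not overlap, and the LSK-WT libraries lay closer together than the LSK-KO libraries. Taldo1, transaldolase, stood at 393 and 494 CPM in LSK-KO, against 370.3 and 369 CPM in LSK-WT, and missed the threshold (edgeR adjusted p = 0.0762), although it was called without the first LSK-KO library (7.46e-05). Of the exon bases of G6pdx, 13.6% are shared with the opposite-strand gene Ikbkg, whose reads cannot be told apart without strand.

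Gys1, the glycogen synthase outside liver (chromosome 7, 45434844 to 45456619, plus strand), was at 54.96 and 58.2 CPM in LSK-KO, against 30.2 and 30.6 CPM in LSK-WT (log2 fold change 0.90, SE 0.129, edgeR adjusted p = 0.000142). Pygl, the glycogen phosphorylase of liver and leukocytes, was at 115 and 134 CPM in LSK-KO, against 109 and 110.2 CPM in LSK-WT, with a log2 fold change of 0.18 (95% interval -0.050 to 0.41) that was not called. Both LSK-KO libraries lay above both LSK-WT libraries for either gene, by a wide gap for Gys1 and a narrow one for Pygl.

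Further genes of the same pathways were listed in LSK cells, where 21.0% of all genes tested were higher and 21.2% lower. Of 10 other uptake and glycolysis genes tested, 4 were higher and 2 lower. Tigar, a phosphatase that lowers fructose 2,6-bisphosphate, was at 42.8 and 37.3 CPM in LSK-KO, against 7.35 and 12.00 CPM in LSK-WT (log2 fold change 2.05, SE 0.222, edgeR adjusted p = 2.85e-05). Slc2a6, a lysosomal hexose transporter, rose 2.72-fold and Adpgk, an ADP-dependent glucokinase, 1.81-fold. Gapdhs, the sperm form of Gapdh, was lower, at 0.833 and 0.851 CPM in LSK-KO, against 3.45 and 2.77 CPM in LSK-WT (edgeR adjusted p = 0.00706, and 0.0839 without the first LSK-WT library). Without either LSK-WT library, 1 gene of that list was lower. Of 8 other pentose phosphate genes tested, 6 were higher and none lower. Among these were Prps1 (1.62-fold), which makes the phosphoribosyl pyrophosphate of nucleotides, Rpe (1.56-fold), Pgls (1.43-fold) and H6pd (1.37-fold). Without the second LSK-WT library this list held 2 higher genes, and Pgls and H6pd were not called (edgeR adjusted p = 0.0922 and 0.107).

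Of 14 other genes of pyruvate fate, 5 were higher and 2 lower, against 21.0% and 21.2% of all genes tested. Pdk2, a further pyruvate dehydrogenase kinase, fell to 19.1 and 24.9 CPM in LSK-KO, against 59.6 and 58.9 CPM in LSK-WT (log2 fold change -1.43, SE 0.152, edgeR adjusted p = 1.54e-05). The pyruvate dehydrogenase subunits Dlat, Pdhx and Dld rose 1.65-, 1.63- and 1.44-fold. Without either LSK-WT library, the list held 3 higher genes, and without the first 1 lower gene. Of 5 gluconeogenesis genes tested, 1 was higher, G6pc3, a widely expressed glucose 6-phosphatase (1.77-fold), and 1 lower, Fbp1, fructose 1,6-bisphosphatase, at 14.2 and 16.7 CPM in LSK-KO, against 38.1 and 31.4 CPM in LSK-WT (log2 fold change -1.17, SE 0.175, edgeR adjusted p = 0.000198). Pck2 and Slc37a4 were not called (log2 fold change -0.21 and 0.26). Without the first LSK-KO library this list held 3 higher genes, with Slc37a4 among them (edgeR adjusted p = 0.0366). Of 17 other glycogen genes tested, 3 were higher and 3 lower, against the same 21.0% and 21.2% of all genes. Pygm, the muscle phosphorylase, fell to 5.47 and 6.97 CPM in LSK-KO, against 40.9 and 36.1 CPM in LSK-WT (log2 fold change -2.63, SE 0.194, edgeR adjusted p = 1.08e-06), while Gyg, which primes glycogen, and Gaa, which degrades it in lysosomes, rose 1.41- and 1.39-fold. Gbe1, the branching enzyme, fell 1.37-fold, a call lost without the second LSK-WT library (edgeR adjusted p = 0.0539). Without that library the glycogen list held 1 lower gene.

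Known regulators of these genes gave 4 of 11 tested higher and 4 lower, against 21.0% and 21.2% of all genes tested. Txnip, a brake on glucose uptake that sugar phosphates induce, fell to 262 and 298 CPM in LSK-KO, against 1348 and 1266 CPM in LSK-WT (log2 fold change -2.22, SE 0.104, edgeR adjusted p = 3.30e-08). Its relative Arrdc4 fell to 39.7 and 44.4 CPM in LSK-KO, against 105 and 111 CPM in LSK-WT (log2 fold change -1.36, SE 0.117, edgeR adjusted p = 3.21e-06). Both genes separated the genotypes by over 2-fold in every pair of libraries. Vhl, part of the ligase that marks hypoxia-inducible factors for breakdown, fell 1.49-fold, and the oxygen-sensing hydroxylase Egln3 rose 1.80-fold. Among the higher regulators, Hif1a and Myc had log2 fold changes of 0.47 and 0.42, both chosen for mention after their values were seen. Without the first LSK-WT library, 1 regulator was higher and 4 were lower.

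Other well-known targets of hypoxia-inducible factors gave 4 of 12 tested higher and 6 lower, against 21.0% and 21.2% of all genes tested. Ero1l, an oxidase of protein folding, was at 136 and 116 CPM in LSK-KO, against 39.1 and 41.3 CPM in LSK-WT (log2 fold change 1.65, SE 0.122, edgeR adjusted p = 1.08e-06). The repressor Bhlhe40 rose 2.96-fold and the growth factor Vegfa 2.51-fold. Ddit4, an inhibitor of mTORC1, fell to 20.7 and 24.5 CPM in LSK-KO, against 97.4 and 82.9 CPM in LSK-WT (log2 fold change -1.997, SE 0.141, edgeR adjusted p = 7.86e-07). The lower genes also included Bnip3, Bnip3l, Ndrg1, Kdm3a and Ankrd37.

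In neutrophils none of the 33 genes tested was called at an adjusted p under 0.05 (edgeR quasi-likelihood test), as was 0.0% of all 12836 genes tested, and Eno2 did not pass the filter. At an unadjusted p under 0.05 the edgeR test gave 2 of the 33, against 13.9% of all genes, and DESeq2 called 1 higher (Slc2a1) and 1 lower (Eno3), against 2.12% and 4.71% of all genes. The median log2 fold change of the 33 genes was 0.77, against 0.02 over all genes. It was 0.18 without the second N-WT library, the library that stood apart, against 0.078 over all genes then tested. Without the first N-WT library it was 1.75, against -0.039 over all genes then tested. The first N-WT library lay below all 3 N-KO libraries for 19 of the 34 genes (30.2% of all genes tested) and above them for 5 (29.1%). Its counterpart, the second N-WT library, was the lowest of the 5 libraries for 23 of the 34 genes, as it was for 28.8% of all genes. These positions rest on TMM factors that ran from 0.62 in the third N-KO library to 1.58 in the second N-WT library. Without them, the genes took 1.94, 1.73 and 0.993% of counted reads in N-KO, against 1.64 and 0.621% in N-WT. By that share the third N-KO library lay below the first N-WT library, but by scaled sum above it (15995 against 15132 CPM).

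**Figure D3:**
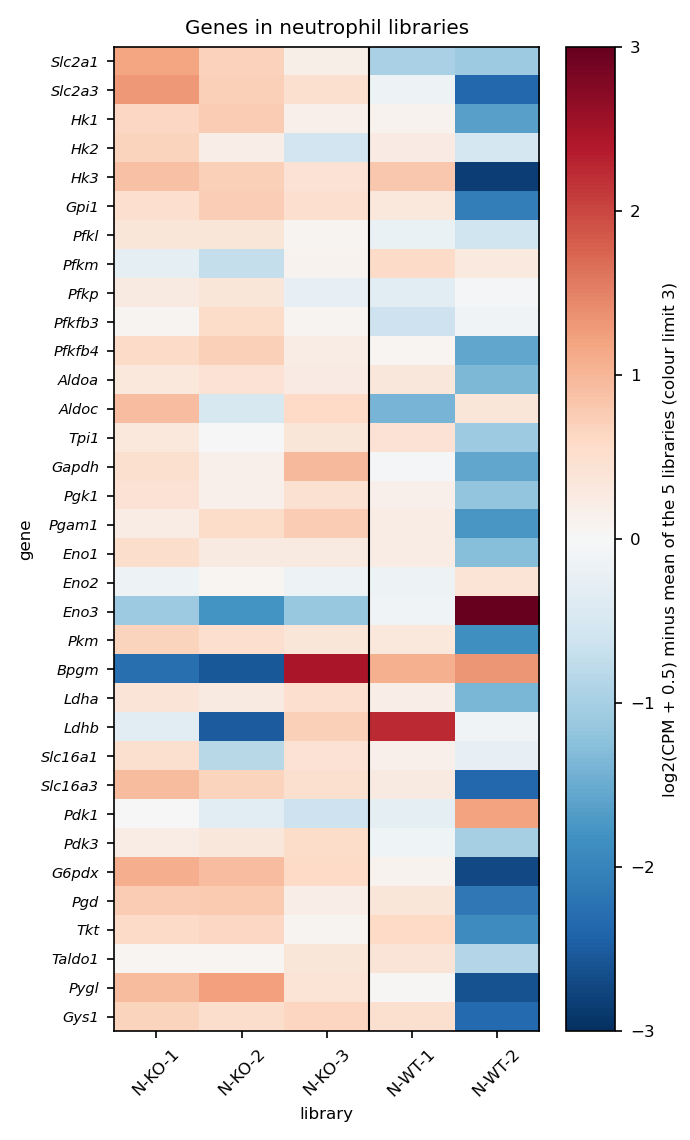
Level of each of the 34 genes in the 5 neutrophil libraries (columns, N-KO left of N-WT), as log2(CPM + 0.5) minus the gene's mean over the 5 libraries; red is above and blue below that mean, with the colour limit at 3. The second N-WT library is the lowest for 23 of the 34 genes, while the first N-WT library is below all N-KO libraries for 19.

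The 2 glucose transporters set all N-KO libraries above both N-WT libraries. Slc2a1 was at 144, 102 and 70.8 CPM in N-KO, against 31.8 and 29.1 CPM in N-WT (log2 fold change 1.79, SE 0.442, edgeR adjusted p = 0.216). Slc2a3 was at 746, 496 and 424 CPM in N-KO, against 274 and 58.9 CPM in N-WT (log2 fold change 1.74, SE 0.739, edgeR adjusted p = 0.362). The N-WT libraries were close together for Slc2a1 and far apart for Slc2a3. Groups that did not overlap, with N-KO higher, were found for 17 of the 34 genes and, with N-KO lower, for 2, against 17.0% and 17.5% of all genes.

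Among hexokinases, Hk1 had the smallest p, at 197, 216 and 142 CPM in N-KO, against 136 and 40.7 CPM in N-WT (log2 fold change 1.06, SE 0.587, edgeR adjusted p = 0.466). Hk3, the leading hexokinase of these cells, was at 775, 702 and 572 CPM in N-KO, against 743 and 59.4 CPM in N-WT. The first N-WT library thus lay inside the N-KO range for Hk3 and only the second below it, whereas Hk2, at 34.4, 25.1 and 14.3 CPM in N-KO, against 25.7 and 14.8 CPM in N-WT, overlapped between genotypes. Pfkfb4, abundant in neutrophils, was at 204, 223 and 159 CPM in N-KO, against 141 and 45.8 CPM in N-WT (log2 fold change 1.06, SE 0.561, edgeR adjusted p = 0.449). Its relative Pfkfb3 was at 35.5, 49.03 and 35.3 CPM in N-KO, against 21.4 and 30.9 CPM in N-WT. All N-KO libraries exceeded both N-WT libraries for these kinases.

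G6pdx, the entry to the NADPH branch, was at 1949, 1743 and 1385 CPM in N-KO, against 980.5 and 141 CPM in N-WT (log2 fold change 1.59, SE 0.853, edgeR adjusted p = 0.455). Pygl, which releases glucose 1-phosphate from glycogen, was at 1949, 2373 and 1347 CPM in N-KO, against 1038 and 165 CPM in N-WT (log2 fold change 1.65, SE 0.852, edgeR adjusted p = 0.438). Pdk3 was at 123, 133 and 156 CPM in N-KO, against 96.5 and 52.7 CPM in N-WT (log2 fold change 0.88, SE 0.426, edgeR adjusted p = 0.412). In each of the 3 genes every N-KO library lay above both N-WT libraries in TMM-scaled CPM, and the second N-WT library was the lowest. Pdk1 overlapped between genotypes, at 6.51, 5.01 and 3.97 CPM in N-KO, against 5.26 and 15.4 CPM in N-WT. For Ldha, at 1422, 1314 and 1536 CPM in N-KO, against 1244 and 414 CPM in N-WT, the first N-WT library lay just below N-KO. It lay inside the N-KO range for Tkt, at 1481, 1508 and 1046 CPM in N-KO, against 1496 and 268 CPM in N-WT.

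A few genes followed single libraries. Eno3 was at 1.38, 0.671 and 1.34 CPM in N-KO, against 3.23 and 70.2 CPM in N-WT (log2 fold change -5.02, SE 1.17, edgeR adjusted p = 0.216), and Eno1 at 617, 513 and 518 CPM in N-KO, against 501 and 176 CPM in N-WT. The high Eno3 value belongs to the library with the raised B-cell markers, and the part of other cells in it was not tested. Ldhb was at 7.49, 1.30 and 15.9 CPM in N-KO, against 46.8 and 8.84 CPM in N-WT, where the first N-WT library was high and the second lay inside the N-KO range. Bpgm was at 4.11, 3.27 and 119 CPM in N-KO, against 45.4 and 54.5 CPM in N-WT, and the summed red-cell markers were at 37.3, 2.25 and 18351 CPM in N-KO, against 1739.9 and 3667 CPM in N-WT. Bpgm and the red-cell markers were thus both highest in the third N-KO library and lowest in the second. Eno2 had at most 0.241 CPM in any neutrophil library.

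Neutrophil and LSK tables had been counted and normalized apart, so shares within an isozyme family are set side by side without a test. As the percentage points of a family's mean make-up that differ between 2 groups, 6 of 9 families differed more between neutrophils and LSK cells of either genotype than between LSK-KO and LSK-WT, and the same number did so with all exon bases as length. They were the lactate transporters, hexokinases, phosphofructokinases, 6-phosphofructo-2-kinases, pyruvate dehydrogenase kinases and enolases. The glucose transporters, aldolases and lactate dehydrogenases did not. For the enolases the N-WT libraries lay on either side of LSK-WT, with Eno1 at 99.2 and 65.9% in N-WT, against 92.3 and 92.3% in LSK-WT. The shares make no allowance for 50-base stretches that also occur in other genes, 72.2% for Eno1 and 0.0% for Eno3. Slc16a1 gave 93.6% ± 0.855 of the 2 lactate transporters in LSK-KO and 92.9% ± 0.180 in LSK-WT (SD, n = 2 each). In neutrophils Slc16a3 was the larger part, and Slc16a1 gave 3.55, 1.69 and 4.69% in the N-KO libraries and 4.41 and 17.7% in the N-WT libraries. Hk3 gave 80.8, 78.2 and 81.8% of hexokinase transcripts in N-KO and 85.2 and 58.2% in N-WT, above its shares in LSK cells in every library. Pfkp gave 52.1, 53.6 and 46.98% of phosphofructokinase transcripts in N-KO and 49.7 and 61.9% in N-WT, against 30.3% ± 0.627 in LSK-KO and 15.3% ± 0.338 in LSK-WT (SD, n = 2 each). Pfkfb4 gave 26.7% ± 1.49 of its pair in LSK-KO and 32.1% ± 4.12 in LSK-WT (SD, n = 2 each), but 88.4, 85.8 and 85.7% in the N-KO libraries and 89.8 and 66.3% in the N-WT libraries. Pdk1 gave 26.3% ± 0.514 of the 2 pyruvate dehydrogenase kinases in LSK-KO and 31.6% ± 1.76 in LSK-WT (SD, n = 2 each), but 2.12, 1.51 and 1.03% in N-KO and 2.17 and 10.7% in N-WT.

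**Figure D4:**
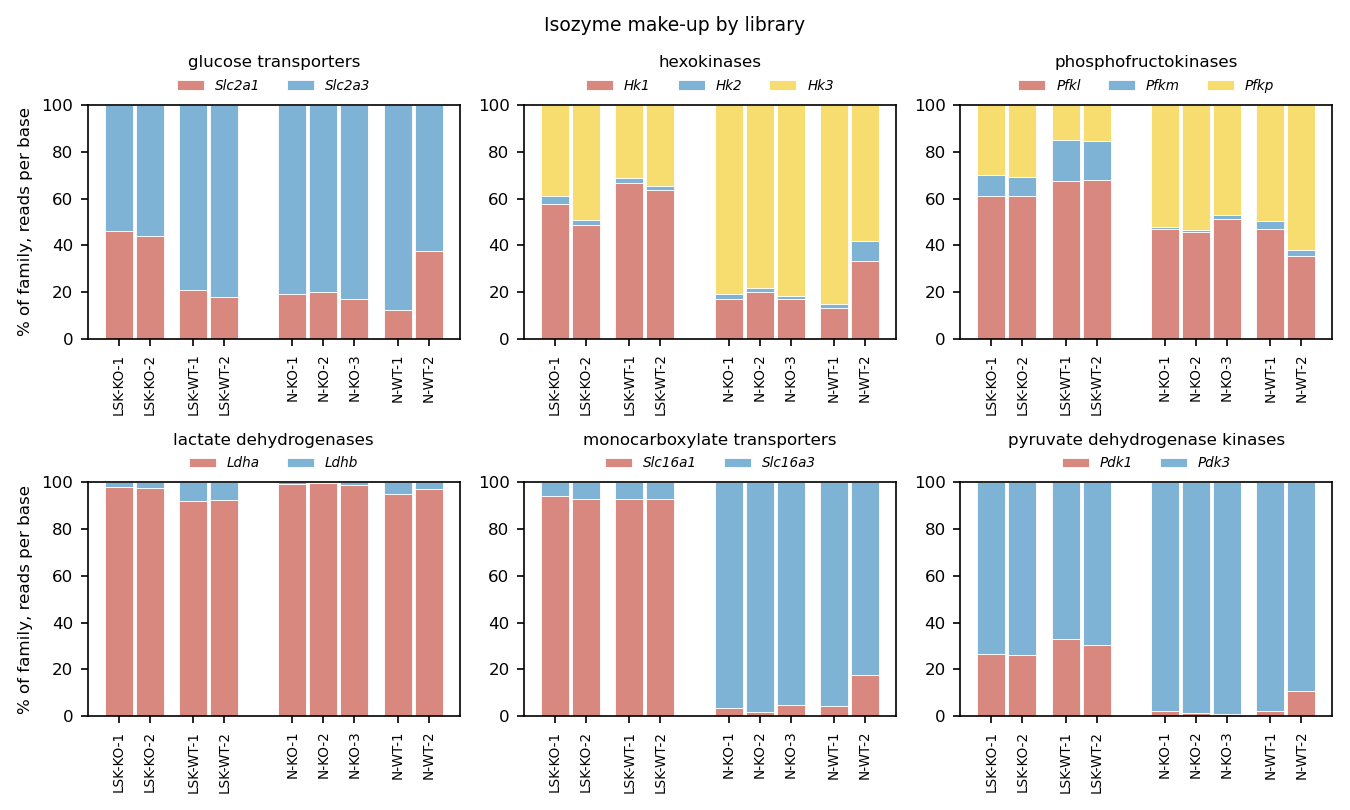
Share of each isozyme in its family (%, CPM per kilobase of the principal transcript) in each of the 9 libraries, knockout left of wild type within LSK cells and within neutrophils (N). Slc16a1 fills at least 92.8% of its panel in every LSK library and at most 17.7% in every neutrophil library.

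With 2 against 2 libraries the smallest p that an exact two-sided permutation test of a share could give is 0.333, and with 3 against 2 it is 0.2, so the shares carry no test. In LSK cells the share of Slc2a1 was 45.99 and 43.8% in LSK-KO, against 20.8 and 17.96% in LSK-WT. That of Ldhb was 2.07 and 2.38% in LSK-KO, against 7.91 and 7.70% in LSK-WT. In both families the genotypes lay far apart relative to their replicates. In neutrophils Slc2a1 gave 18.99, 19.9 and 16.9% in N-KO, against 12.4 and 37.5% in N-WT, so that the N-WT libraries lay on either side of N-KO. The level of a share depends on the length used. With all exon bases of the gene in place of the principal transcript, an alternative added after the values were seen, Slc2a1 gave 58.1% ± 1.52 in LSK-KO and 29.01% ± 2.64 in LSK-WT (SD, n = 2 each), with the same direction between genotypes, but with Slc2a1 in place of Slc2a3 as the larger part in LSK-KO. Hk3 likewise became the larger part of the hexokinases in LSK-KO, at 59.1% ± 7.29 (SD, n = 2). In neutrophils Pfkl took the place of Pfkp as the larger mean part of the phosphofructokinases. Pfkl gave 61.5% ± 2.14 in N-KO (SD, n = 3) and 53.8% ± 7.81 in N-WT (SD, n = 2), and Pfkp 36.2% ± 3.32 and 40.6% ± 8.43.

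Whether the effect of the genotype differed between populations was tested in a fit of all 9 libraries. None of the 34 genes passed at an adjusted p under 0.05 (edgeR quasi-likelihood test, smallest 0.185), as did 0.0299% of the 13387 genes tested, and 5 had an unadjusted p under 0.05, against 15.7% of all genes. Slc2a3 was lower in LSK-KO and not called in neutrophils (difference on the log2 scale, neutrophils minus LSK, 2.89, SE 0.900, edgeR unadjusted p = 0.0124, adjusted p = 0.223). The estimate for Pfkp had the opposite sign and was not called either (-1.10, SE 0.407, edgeR unadjusted p = 0.0271, adjusted p = 0.262). The remaining genes of the 5 were Eno3, Slc2a1 and Pfkfb4. Without the first N-WT library, 11 of the 34 genes passed the adjusted threshold, against 9.32% of the 14474 genes then tested, and no other single library left out gave any.

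**Figure D5:**
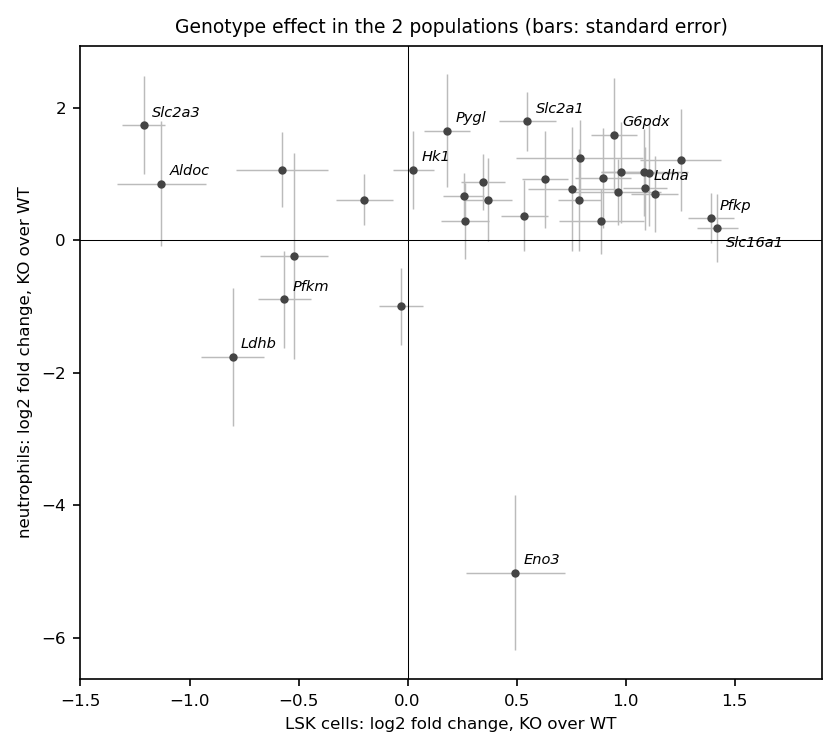
Log2 fold change, knockout over wild type, of 33 genes in LSK cells (horizontal axis) and in neutrophils (vertical axis), each from its own edgeR fit; bars are standard errors. Bars are several times longer for neutrophils, and Slc2a3 lies at -1.21 in LSK cells and 1.74 in neutrophils.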

How the data were processed

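Polyadenylated RNA of sorted cells had been isolated with RNeasy Micro columns and amplified with the SMART-Seq v4 kit, per the labels. Tools named in the submitters' processing notes, without versions or settings, are STAR, featureCounts, DESeq2 and bcl2fastq, with the builds mm10 and GRCm38. The authors deposited raw read counts per gene, which were tested here, and normalized values (signal), which equalled the counts divided by 1 factor per library and served as a check. Neither strand use nor the treatment of reads with several matches is given in the sources used here.

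Counts were fitted within each population with edgeR 4.0.16 (R 4.3.3), with TMM factors, its expression filter by group and a robust quasi-likelihood F test. P-values were adjusted by Benjamini-Hochberg over all genes tested, at a threshold of 0.05. DESeq2 1.42.0, other factors, no filter, a replicate block, a shared spread and leaving out each library were alternatives. SE is that of the log2 fold change. Levels per length used the principal transcript of GENCODE M21 (GRCm38), which also gave coordinates, and 34431 genes were joined by symbol for the fit over both populations. Groups follow the titles. Replicates differed beyond sampling noise (smallest chi-square per gene 9.87). Whether they are separate animals is not stated, so the spread behind each p-value may be technical. Floors cover counting error only, because PCR copies of a molecule were not set apart by molecular identifiers.

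The genes and lists were chosen with earlier results of these data known. All 34 genes are named, with full values for up to 3 of each role past the threshold and for their isozymes in LSK cells, for the smallest p of each role in neutrophils, and up to 4 genes with the smallest p of each further list. In simulated LSK counts of 12777 genes, the procedure recovered 96% of genes changed 2-fold and 100% of those changed 4-fold. In simulated neutrophil counts of 12428 genes it recovered 0% and 1%. Unchanged genes called numbered 10 in the LSK simulation and 0 in the neutrophil simulation. Genes of like level were given a like spread, no library was made to stand apart, and the lowest levels were left unchanged. The recovered shares therefore need not hold for the real counts.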

Additional observations from a re-analysis of the deposited data

How the results depend on the processing

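In LSK cells the counts of 21 higher and 6 lower genes stayed within 1.5 times under DESeq2, its size factors, no expression filter and the replicate block (22 higher, 6 lower), although DESeq2 did not call Pfkfb4 or Gapdh. Upper-quartile factors gave 17 higher and 6 lower and a median log2 fold change of 0.45, with the median of all genes at -0.12. Leaving out 1 library gave 16 to 23 higher, 4 to 6 lower and medians of 0.46 to 0.63. With 1 spread shared over all 9 libraries, 0 genes were higher and 0 lower, as were 0 of all genes. A group left with 1 library was taken to vary like the others. In neutrophils, DESeq2 called 1 higher and 1 lower gene (272 and 605 of all 12836 genes), and so did the shared spread (114 and 414 of 13387). The replicate block called 0 higher and 2 lower, Ldhb and Bpgm (86 and 248 of 12836). The numbers of the libraries were not taken as pairs. For this, each gene's deviation from its group mean was correlated between same-numbered knockout and wild-type libraries. These deviations correlated at 0.0039 in LSK cells and at 0.24 and -0.024 in neutrophils. Leaving out 1 library gave 0 to 7 higher, 0 to 1 lower and medians of 0.18 to 1.75, and leaving out both the second N-WT and the third N-KO library, chosen after seeing the data, a median of 0.20. The test between populations gave 0 to 11 genes without 1 library and 0 with the replicate block. The causes were not tested.

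Estimates that changed sign were uncalled both with all libraries and under the alternative that turned them. Leaving out 1 library, the log2 fold changes of those that did ran from -0.049 to 0.11 for Hk1 and from -0.11 to 0.063 for Pdk1 in LSK cells, and from -0.030 to 1.75 for Aldoa, from -3.76 to 0.27 for Bpgm, from -0.090 to 0.80 for Hk2, from -0.15 to 3.58 for Hk3, from -1.52 to -0.057 for Pdk1, from -0.065 to 0.50 for Slc16a1, from -0.037 to 0.40 for Spop, from -0.24 to 1.11 for Taldo1, from -0.19 to 2.39 for Tkt and from -0.23 to 1.38 for Tpi1 in neutrophils. Other settings that turned a sign were upper-quartile factors (Hk1 -0.067 in LSK cells, Spop -0.0031 in neutrophils), the replicate block (Slc16a1 -0.13 in neutrophils) and leaving out both the second N-WT and the third N-KO library (Hk3 -0.025, Tpi1 -0.28, Slc16a1 -0.19, Pdk1 0.12, Tkt -0.018 and Taldo1 -0.33).

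Genes under about 1 CPM, such as Eno2, rest on few reads.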
